A study of Mus musculus with 53 samples.

Results

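The change of the IL-4 response between 1 h and 3 h was examined in wild-type (WT) mouse bone marrow-derived macrophages (BMDMs). For each gene the response at 1 h, IL-4 minus time-matched control, was subtracted from the response at 3 h. The members of this contrast are 16 of the 53 samples of the series, 4 in each of 4 groups, and the 10818 of 23847 rows (1 row per gene locus) that reached 1 FPKM in at least 1 of these samples. FPKM is a level that divides the fragments assigned to a transcript by its length in kilobases and by the size of the library. All changes are differences of mean log2(FPKM + 1), so a change of 1 is a doubling only where the level lies well above 1 FPKM, and changes of low genes are understated. A row was called where limma's Benjamini-Hochberg adjusted p was under 0.05 and the change was at least 1 in size.

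The cells came from marrow of 8 to 12 week old WT mice on a C57BL/6 background and of Stat6-/- mice, which lack the working transcription factor through which IL-4 acts. They had differentiated for 6 days in medium that held L929 cell supernatant, a source of the growth factor M-CSF. The 4 WT groups were untreated controls at 1 h, cells with 20 ng/ml of IL-4 for 1 h, untreated controls at 3 h and cells with the same dose for 3 h. Stat6-/- cells had the same 4 groups, with 2 samples each, and WT cells with and without IL-4 at 6 h and 24 h gave the later responses. The labels do not state whether equal replicate numbers mark the same animal.

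IL-4 binds a receptor of the IL-4Rα and common γ chains, which activates JAK kinases that phosphorylate STAT6. Phosphorylated STAT6 dimers enter the nucleus within minutes and bind palindromic DNA elements. STAT6 acts at some genes as an activator and at others as a repressor. At repressed sites the authors found its canonical motif less often than at activated ones. Some targets are transcribed directly, and others need proteins made from the first targets, so the set of responding genes is known to change over the first hours of alternative polarization. The comparison asks which responses were there at 3 h and not at 1 h, which were gone by 3 h, and which changed direction.

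The 16 tables summed to between 390427 and 464915 FPKM, with 10157 to 10380 rows at 1 FPKM or more. Relative sequencing depth, recovered from low rows, ran from 0.720 to 1.56 and averaged 1.03, 1.16, 1.05 and 0.966 in the 1 h control, 1 h IL-4, 3 h control and 3 h IL-4 groups. Stat6 was at 14.3 to 22.5 FPKM in the 8 Stat6-/- samples and at 58.7 to 90.6 in the 16 WT samples. No row of 14 macrophage markers stayed under 1 FPKM in every sample of a group, although Lyz2, a lysozyme gene, was listed at 0 in 1, 2, 1 and 0 samples of the 4 groups and up to 26961 FPKM in others. Neutrophil and progenitor markers summed to 361 to 635 FPKM with none of 11 tested called, and 10 erythroid markers stayed under 1 FPKM in every sample. None of the tested markers of B and T cells (2 tested), dendritic cells (2) or mast cells, basophils and eosinophils (1) was called.

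The response changed between 1 h and 3 h for 182 rows, 1.68% of those tested. It became more positive for 121 rows (1.12%) and more negative for 61 (0.564%). The median change over all rows was 0.021. In the same fit, the controls alone differed between 3 h and 1 h in 4 rows (0.037%), and the IL-4 samples alone in 187 (1.73%). The 4 control rows were Thbs1 (1.94), the cytokine Il1b (2.07), the cytohesin-interacting protein Cytip (1.01) and the AP-1 subunit Fosl2 (1.17), each higher at 3 h. Their changes of the response, which share those controls, were -3.13, -0.95, -0.51 and -0.90.

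Each called row was placed by its response at either time. Started means called at 3 h and not at 1 h, stopped means called at 1 h and not at 3 h, and grew or shrank means called at both in one direction with a larger or smaller size at 3 h. Among the 182 rows, 88 started higher, 43 started lower, 4 stopped higher, 6 stopped lower, 21 grew higher, 1 shrank higher and 1 shrank lower. With a pseudocount of 0.1 in place of 1, 102 rows were called lower, 77 started lower, 39 grew higher, 12 stopped lower and 2 stopped higher, and with 0.5, 10 stopped lower. Over all rows, 1.13% were called higher and 0.407% lower at 1 h, and 2.69% and 1.31% at 3 h. Among the called rows no response grew in the lower direction, and none was called at both times in opposite directions. Smaller changes lie outside these classes. The response of Nr4a1 went from -1.04 to -1.65 (change -0.60, limma adjusted p = 0.0148). That of Tnf went from -2.09 to -1.42 (change 0.67, adjusted p = 0.010). The remaining 18 rows, 5 with a more positive and 13 with a more negative response, were called at neither time. At the threshold, 9130008F23Rik and Ptk2b lay just inside with changes of -1.0001 and -1.002, and Slc25a13 (0.992) and Cnnm2 (-0.996) lay just outside.

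**Figure D1:**
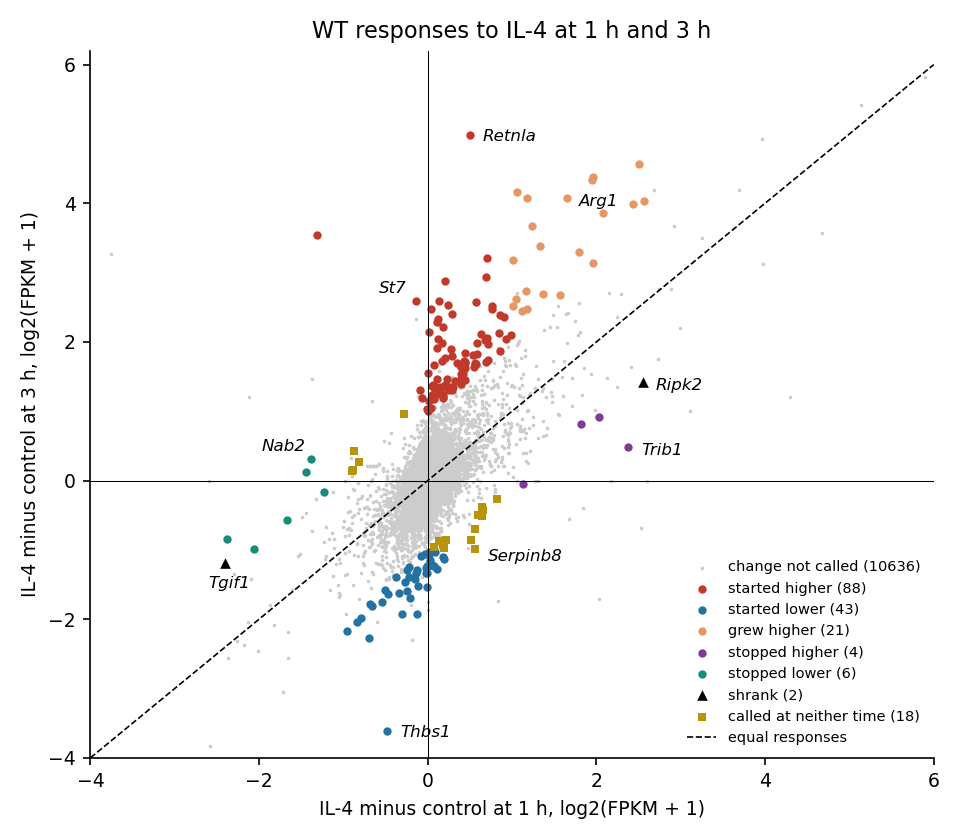
Response to IL-4 at 1 h (x axis) and 3 h (y axis) of the 10818 rows tested in WT BMDMs, both as differences of mean log2(FPKM + 1) between 4 IL-4 and 4 control samples, coloured by class with the number of rows. The 88 started-higher rows stand above 1 near the middle of the x axis, the 43 started-lower rows lie below -1, and the lower right and upper left corners hold no row called at both times.

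The proximal promoters of 6 genes are shown. Retnla and Tgif1 are genes the results turn on, St7 and Pdcd1lg2 were chosen because a window of theirs held the motif searched for, and Arhgap22 and Nab2 are the leading genes with a promoter among those that started and stopped lower. Each is the 250 bases before the annotated RefSeq start on build GRCm38.p6, written 5′ to 3′ on the gene's strand. Capitals mark a match to TTC and GAA with 4 bases of any kind between them, the palindromic spacing that STAT6 is known to prefer. Retnla started higher, St7 started higher from a long locus, Pdcd1lg2 grew higher, Tgif1 shrank, Arhgap22 started lower and Nab2 stopped lower. The windows are chr16:48842359-48842608, plus strand, for Retnla, chr6:17748920-17749169, plus strand, for St7, chr19:29410669-29410918, plus strand, for Pdcd1lg2, chr17:70853533-70853782, minus strand, for Tgif1, chr14:33216573-33216822, plus strand, for Arhgap22, and chr10:127666704-127666953, minus strand, for Nab2.
Retnla: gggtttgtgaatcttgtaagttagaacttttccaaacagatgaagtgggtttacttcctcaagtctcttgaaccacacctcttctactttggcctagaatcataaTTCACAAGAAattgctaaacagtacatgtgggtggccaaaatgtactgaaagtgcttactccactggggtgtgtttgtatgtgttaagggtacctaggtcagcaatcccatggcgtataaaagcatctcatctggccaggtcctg
St7: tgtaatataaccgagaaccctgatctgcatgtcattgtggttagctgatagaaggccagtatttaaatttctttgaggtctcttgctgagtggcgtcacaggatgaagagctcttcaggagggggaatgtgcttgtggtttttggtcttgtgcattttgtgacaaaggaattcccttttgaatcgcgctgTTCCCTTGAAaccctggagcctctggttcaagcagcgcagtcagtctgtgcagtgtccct
Pdcd1lg2: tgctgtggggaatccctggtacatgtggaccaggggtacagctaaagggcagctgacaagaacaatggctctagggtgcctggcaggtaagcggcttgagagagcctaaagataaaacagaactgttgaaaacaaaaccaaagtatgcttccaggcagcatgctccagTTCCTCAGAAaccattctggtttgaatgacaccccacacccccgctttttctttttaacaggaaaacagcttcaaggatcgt
Tgif1: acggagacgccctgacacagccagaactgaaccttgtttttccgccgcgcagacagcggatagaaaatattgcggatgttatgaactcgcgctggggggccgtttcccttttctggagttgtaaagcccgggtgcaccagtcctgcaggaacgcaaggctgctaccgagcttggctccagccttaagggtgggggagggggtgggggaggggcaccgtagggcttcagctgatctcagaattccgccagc
Arhgap22: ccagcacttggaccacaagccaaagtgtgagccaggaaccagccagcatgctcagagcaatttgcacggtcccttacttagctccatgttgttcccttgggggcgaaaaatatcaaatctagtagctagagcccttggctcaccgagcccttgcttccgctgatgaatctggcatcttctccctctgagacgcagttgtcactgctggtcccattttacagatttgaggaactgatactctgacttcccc
Nab2: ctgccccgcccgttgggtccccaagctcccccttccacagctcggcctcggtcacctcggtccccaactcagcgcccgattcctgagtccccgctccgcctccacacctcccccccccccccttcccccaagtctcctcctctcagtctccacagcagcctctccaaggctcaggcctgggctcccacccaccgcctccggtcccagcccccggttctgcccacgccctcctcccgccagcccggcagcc
The match began 145 bases before the start in Retnla, 60 in St7 and 82 in Pdcd1lg2, where St7 had 3 annotated windows and the 1 that matched is shown. None of 5 annotated windows of Tgif1 held a match, nor did the single window of Arhgap22 or of Nab2. The table of promoters had no entry for Thbs1.

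The motif, searched on both strands, stood in 6.76% of all 27025 genes with a promoter and in 5.75% of the 8107 tested rows that matched one. It stood in 7 of 67 started-higher genes (10.4%), 2 of 18 that grew higher (11.1%), 0 of 29 that started lower and 0 of 5 that stopped lower. With 3 bases in place of 4 between TTC and GAA, it stood in 7.08% of tested rows, in 5 of 67 that started higher, in 4 of 18 that grew higher and in 5 of 29 that started lower. At that spacing 1 of the 5 windows of Tgif1, the only row that shrank lower, held a match. The 2 spacings can overlap in a promoter. A match describes the letters in the window and was not tested as a binding site.

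Among the responses that started higher, the largest after the small nucleolar RNA Snora17 was that of Retnla (chromosome 16, 48842552 to 48844461, mm10), which codes for the secreted protein RELMα, a marker of alternatively polarized macrophages. Retnla was at 0.153, 0.0837, 0 and 0 FPKM in the 1 h controls and at 0.248, 0.281, 1.03 and 0.533 with IL-4 at 1 h. It was listed at 0 in all 4 controls at 3 h and stood at 24.0, 25.4, 32.7 and 44.3 with IL-4. The IL-4 samples at 3 h thus lay above every other sample, while the 1 h IL-4 samples reached at most 1.03 FPKM. The change was 4.49 ± 0.40 (SE; limma adjusted p = 7.71e-11), and the response was 8.10 at 6 h and 11.99 at 24 h.

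St7, a gene named as a candidate tumour suppressor (chromosome 6, 17749216 to 17943022), was at 3.77, 3.62, 4.45 and 4.32 FPKM in the 1 h controls and at 3.30, 2.76, 4.04 and 4.37 with IL-4. At 3 h it was at 3.67, 3.15, 3.46 and 3.68 in controls and at 26.5, 21.6, 27.3 and 29.0 with IL-4. The groups overlapped at 1 h and were far apart at 3 h. The change was 2.72 ± 0.28 (SE; limma adjusted p = 2.62e-09). The response was still 2.43 at 6 h and was -0.33 at 24 h (adjusted p = 0.195).

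Fmnl2, a formin that builds actin filaments (chromosome 2, 52857868 to 53134202), was at 1.38, 1.28, 1.52 and 1.70 FPKM in the 1 h controls, and at 1.67, 1.72, 1.57 and 1.89 with IL-4. At 3 h its controls were at 1.51, 1.29, 1.43 and 1.37 FPKM and its IL-4 samples at 11.8, 12.1, 14.5 and 16.1. The change was 2.46 ± 0.13 (SE; limma adjusted p = 1.78e-17). Groups overlapped at 1 h only. Fchsd2, which codes for an F-BAR protein of endocytosis (chromosome 7, 101108775 to 101284405), went from 9.74 ± 2.2 FPKM with IL-4 at 1 h to 73.5 ± 7.2 at 3 h (SD, n = 4 each), against 8.38 ± 2.2 and 9.19 ± 1.9 in the controls. Its change was 2.68 ± 0.36 (limma adjusted p = 6.65e-07).

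Prps1, which makes phosphoribosyl pyrophosphate for nucleotide synthesis (chromosome X, 140456603 to 140476140), differed from these in that part of its response was there at 1 h. It stood at 3.18, 4.59, 3.85 and 3.91 FPKM in the 1 h controls and 6.35, 6.38, 6.87 and 8.13 with IL-4, without overlap. At 3 h the controls were at 3.11, 3.64, 4.14 and 3.51 FPKM and the IL-4 samples at 40.0, 35.6, 41.1 and 49.5. The response of 0.70 at 1 h (adjusted p = 2.04e-05) fell short of the size for a call and became 3.2 at 3 h, a change of 2.503 ± 0.17 (limma adjusted p = 1.72e-14).

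Such early fractions were a minority on the log2(FPKM + 1) scale, which understates them for genes under 1 FPKM. B3gnt7, for example, was at 0.068 FPKM in the 1 h controls and 0.942 with IL-4 at 1 h, and Cldn11 at 0.0086 and 0.375. Of the 88 started-higher rows, 64 had a 1 h response under 0.5 in size, and 28 had an adjusted p under 0.05 at 1 h. The median response went from 0.26 at 1 h to 1.69 at 3 h. The median difference between the controls at 3 h and 1 h was -0.02, and that between the IL-4 samples was 1.26.

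Snora17 was an exception in its reliability. Its fitted change was the largest among the called rows (4.84 ± 1.36, limma adjusted p = 0.0131), but it was listed at 0 in 12 of the 16 samples, and 1 control at 1 h (36.7 FPKM) and 1 IL-4 sample at 3 h (108 FPKM) stood apart. Without replicate 4 of the 1 h controls the adjusted p was 0.0508, and without replicate 1 of the 3 h IL-4 samples it was 0.0546.

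**Figure D2:**
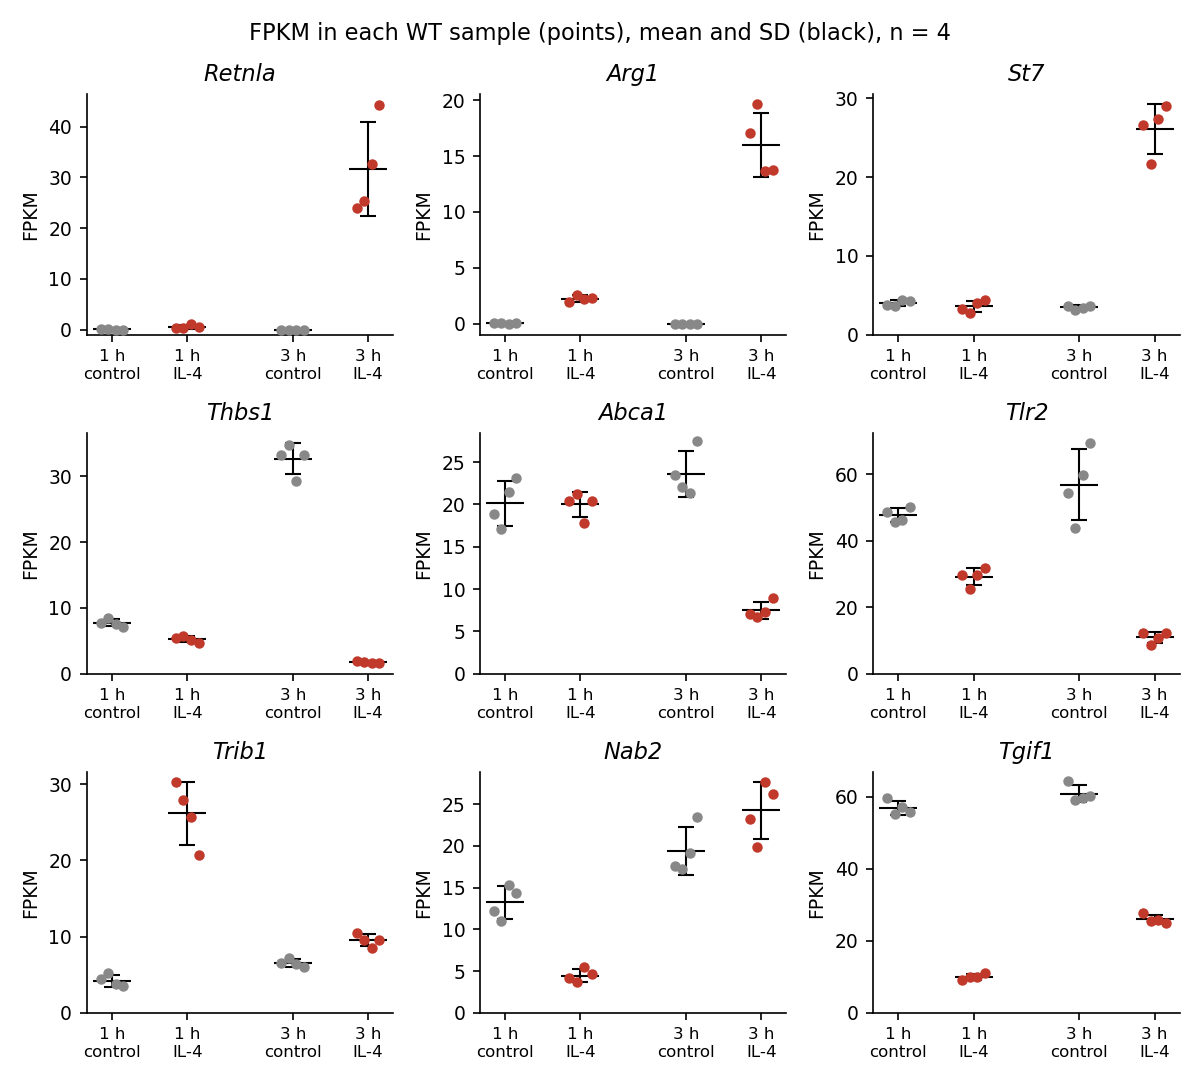
FPKM (y axis) of 9 genes in each of the 16 WT samples, by time and treatment, with points for samples and black bars for the mean and SD of 4. Retnla, Arg1 and St7 separate at 3 h with IL-4, Thbs1, Abca1 and Tlr2 are lowest there, and Trib1, Nab2 and Tgif1 depart from control most at 1 h.

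Among the 43 responses that started lower, the largest was that of Thbs1 (chromosome 2, 118111922 to 118127133), which codes for thrombospondin 1, a secreted matrix protein known to activate latent TGF-β. Thbs1 was at 7.67, 8.48, 7.64 and 7.18 FPKM in the 1 h controls and at 5.50, 5.81, 5.18 and 4.64 with IL-4. Its 3 h levels were 33.3, 34.8, 29.3 and 33.3 in controls and at 1.97, 1.82, 1.66 and 1.59 with IL-4. It thus moved in opposite directions in the 2 arms. The level rose by 1.94 in the controls (limma adjusted p = 1.39e-08) and fell by 1.19 in the IL-4 samples (adjusted p = 4.41e-06). The change of the response was -3.13 ± 0.27 (adjusted p = 1.64e-11).

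Thbs1 in Stat6-/- cells was higher in every 3 h sample than in every 1 h sample, with or without IL-4. It was at 14.5 and 16.8 FPKM in the 1 h controls, 13.3 and 16.9 with IL-4 at 1 h, 47.2 and 41.6 in the 3 h controls and 46.9 and 41.0 with IL-4 at 3 h. IL-4 samples and controls overlapped there at either time. The change of the response was 0.04, and the difference from WT was -3.17 ± 0.46 (limma adjusted p = 1.75e-05).

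For the other large started-lower responses the controls held about level and the IL-4 samples dropped. Abca1, the transporter that exports cholesterol (chromosome 4, 53030789 to 53159895), was at 18.9, 17.1, 21.4 and 23.1 FPKM in the 1 h controls and at 20.4, 21.3, 17.9 and 20.4 with IL-4. Levels at 3 h were 23.5, 22.0, 21.4 and 27.4 in controls and at 7.03, 6.68, 7.32 and 8.94 with IL-4. The groups overlapped at 1 h and did not at 3 h, a change of -1.53 ± 0.28 (limma adjusted p = 0.000172).

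Tlr2, a receptor for bacterial lipoproteins (chromosome 3, 83836272 to 83841608), was lower already at 1 h by less than the size for a call. It was at 48.6, 45.5, 46.3 and 50 FPKM in the 1 h controls and at 29.8, 25.5, 29.7 and 31.7 with IL-4. At 3 h the controls stood at 54.2, 43.8, 59.6 and 69.4 FPKM and the IL-4 samples at 12.1, 8.55, 10.8 and 12.2. Groups were apart at both times, and the gap widened by 1.58 ± 0.23 (limma adjusted p = 2.69e-06).

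Arhgap22, a GTPase-activating protein for Rac (chromosome 14, 33216823 to 33369936), stood at 20.6 ± 3.1 FPKM with IL-4 at 1 h against 22.5 ± 2.4 in controls, and at 4.38 ± 0.98 against 19.3 ± 3.2 at 3 h (SD, n = 4 each). Its change was -1.79 ± 0.31 (limma adjusted p = 7.74e-05). Gpr162, an orphan receptor, changed by -1.62 ± 0.27 (adjusted p = 2.67e-05), and Slc16a10, a transporter of aromatic amino acids, by -1.49 ± 0.12 (adjusted p = 6.26e-12). Over the 43 rows the median response went from -0.13 to -1.34, with 35 under 0.5 in size at 1 h. The median difference between 3 h and 1 h was 0.08 in the controls and -1.14 in the IL-4 samples.

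The 21 responses that grew were all in the higher direction, with a median of 1.37 at 1 h and 3.38 at 3 h. Il4i1, a secreted amino acid oxidase (chromosome 7, 44836288 to 44840809), was at 1.39, 1.26, 0.970 and 0.892 FPKM in the 1 h controls and at 3.54, 3.84, 4.06 and 2.47 with IL-4. After 3 h the levels were 1.36, 1.22, 0.789 and 1.27 in controls and at 39.9, 28.5, 36.6 and 46.3 with IL-4. The IL-4 samples lay above every control at both times. The change was 3.09 ± 0.32 (limma adjusted p = 1.78e-09).

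Pdcd1lg2, which codes for PD-L2, a ligand of the T cell receptor PD-1 (chromosome 19, 29410919 to 29472927), was at 0.138, 0.131, 0.219 and 0.198 FPKM in the 1 h controls and at 1.5, 1.38, 1.81 and 1.96 with IL-4. The 3 h levels were 0.116, 0.137, 0.0932 and 0.199 in controls and at 17.5, 16.2, 16.9 and 22.7 with IL-4. Its change of 2.90 ± 0.11 had the smallest adjusted p of the contrast (limma, 5.98e-22).

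Arg1, the arginase that turns arginine into ornithine (chromosome 10, 24915207 to 24927470), was at most 0.0509 FPKM in the 1 h controls and at 1.90, 2.60, 2.17 and 2.29 with IL-4. It was listed at 0 in the 4 controls at 3 h and reached 17.0, 19.6, 13.7 and 13.8 with IL-4. The change was 2.42 ± 0.23 (limma adjusted p = 3.85e-10). Snn, which codes for the small membrane protein stannin, went from 3.27 ± 0.64 FPKM with IL-4 at 1 h to 19.6 ± 7.2 at 3 h, against 0.804 ± 0.12 and 0.546 ± 0.092 in controls (SD, n = 4 each), a change of 2.44 ± 0.21 (adjusted p = 3.15e-11).

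Responses that stopped were few. Trib1, a pseudokinase that steers protein degradation (chromosome 15, 59648654 to 59657099), was at 4.46, 5.19, 3.74 and 3.47 FPKM in the 1 h controls and at 30.3, 27.9, 25.7 and 20.7 with IL-4. By 3 h Trib1 was at 6.48, 7.18, 6.36 and 6.00 in controls and at 10.4, 9.56, 8.54 and 9.50 with IL-4. The groups did not overlap at either time, but the response went from 2.38 to 0.48 (adjusted p at 3 h = 0.136). The change was -1.89 ± 0.34 (limma adjusted p = 0.000107).

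Osgin2, named for its likeness to an oxidative stress-induced growth inhibitor (chromosome 4, 15997121 to 16013877), returned to the level of its controls. It was at 6.76, 6.39, 6.13 and 5.72 FPKM in the 1 h controls and at 16.4, 16.3, 13.8 and 13.2 with IL-4. By 3 h Osgin2 was at 6.39, 7.40, 6.19 and 4.49 in controls and at 6.27, 7.21, 5.41 and 4.51 with IL-4, with the groups overlapping. The change was -1.19 ± 0.31 (limma adjusted p = 0.00782). The other rows that stopped higher were the transcripts AI504432 (-1.12 ± 0.34, adjusted p = 0.0223) and 9130008F23Rik (-1.0001 ± 0.15, adjusted p = 6.37e-06), each still above control at 3 h by 0.91 and 0.81. Without replicate 2 of the 1 h controls only 2 rows were left in this class, as AI504432 and 9130008F23Rik no longer passed. Over all alternatives 9130008F23Rik lost its call in 8 and AI504432 in 3, among them a pseudocount of 0.1 (limma adjusted p = 0.0566).

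The 6 responses that stopped lower were Nab2, Id2, Gdf15, Btg2, Zfp36l2 and Bbc3. Nab2, a co-repressor of the EGR transcription factors (chromosome 10, 127660918 to 127666703), was at 12.2, 11.03, 15.3 and 14.4 FPKM in the 1 h controls and at 4.15, 3.66, 5.47 and 4.59 with IL-4. By 3 h Nab2 was at 17.6, 17.3, 19.2 and 23.5 in controls and at 23.2, 19.9, 27.7 and 26.3 with IL-4. The groups were apart at 1 h and overlapped at 3 h. The change was 1.69 ± 0.22 (limma adjusted p = 3.76e-07).

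Id2, an inhibitor of basic helix-loop-helix factors (chromosome 12, 25093799 to 25096092), was at 77.1, 74.9, 66.6 and 69.5 FPKM in the 1 h controls and at 23.8, 25.1, 23.6 and 31.2 with IL-4. By 3 h Id2 was at 45.4, 47.1, 42.0 and 30.7 in controls and at 46.5, 48.1, 48.1 and 36.1 with IL-4. Here the arms met from either side, with the controls lower by 0.80 at 3 h than at 1 h and the IL-4 samples higher by 0.76. The change was 1.57 ± 0.24 (limma adjusted p = 9.74e-06). In Stat6-/- controls Id2 was likewise at 70.9 and 77.4 FPKM at 1 h and at 34.3 and 38.6 at 3 h.

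Gdf15, a stress-induced cytokine, changed by 1.54 ± 0.47 (limma adjusted p = 0.0229), with IL-4 samples at 0.773 ± 0.28 FPKM at 1 h and 1.79 ± 0.43 at 3 h against controls at 8.30 ± 1.9 and 3.99 ± 0.70 (SD, n = 4 each). Its 3 h samples with IL-4 were still below every control. Without replicate 2 of the 1 h IL-4 samples its adjusted p was 0.0528, and without replicate 3 of the 3 h IL-4 samples it was 0.0506. Btg2, an antiproliferative gene, changed by 1.11 ± 0.30 (adjusted p = 0.00928), Zfp36l2, which destabilises AU-rich mRNAs, by 1.08 ± 0.12 (adjusted p = 2.26e-08) and Bbc3, the pro-apoptotic PUMA, by 1.07 ± 0.25 (adjusted p = 0.00292). Their responses at 3 h were -0.57, -0.98 and -0.17. Zfp36l2 was thus still well below control at 3 h (52.6 against 104.9 FPKM), with a response just under the size for a call.

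A single response shrank in either direction. Tgif1, a homeodomain co-repressor of SMAD signalling (chromosome 17, 70844205 to 70853532), was at 59.6, 55.3, 57.1 and 55.8 FPKM in the 1 h controls and at 9.15, 9.81, 9.89 and 11.1 with IL-4. At 3 h it was at 64.3, 59.0, 59.7 and 60.3 in controls and at 27.6, 25.5, 25.9 and 25.02 with IL-4. Groups stayed apart at both times while the response went from -2.40 to -1.20, a change of 1.21 ± 0.17 (limma adjusted p = 2.77e-06). It was -0.51 at 6 h and 0.00 at 24 h.

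Ripk2, the kinase that signals from NOD receptors (chromosome 4, 16123375 to 16163498), shrank from above. It was at 6.27, 6.37, 6.26 and 6.52 FPKM in the 1 h controls, 44.4, 41.7, 42.7 and 40.3 with IL-4 at 1 h, 7.43, 8.12, 8.20 and 7.18 in the 3 h controls and 24.5, 25.7, 20.7 and 19.2 with IL-4 at 3 h. The response went from 2.56 to 1.42, a change of -1.14 ± 0.16 (limma adjusted p = 2.20e-06), and was 1.35 at 6 h and 1.29 at 24 h.

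No response turned round under the rule, which asks for a size of 1 at both times. With an adjusted p under 0.05 at both times and no size limit, a criterion added after the data were seen, 7 rows turned round among those called, all from higher at 1 h to lower at 3 h. They included Serpinb8, Ptpn12, Calcrl, Pdp1, Hhex and Ccdc71l. Serpinb8, a protease inhibitor (chromosome 1, 107590006 to 107608978), was at 13.0, 14.0, 13.8 and 14.5 FPKM in the 1 h controls and at 22.5, 21.6, 19.6 and 20.1 with IL-4. At 3 h it was at 13.0, 13.3, 12.7 and 12.2 in controls and at 6.56, 7.54, 5.55 and 4.64 with IL-4. Its groups did not overlap at either time, on opposite sides, and the response went from 0.56 to -0.98, a change of -1.54 ± 0.19 (limma adjusted p = 1.63e-07).

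Ptpn12, a tyrosine phosphatase of the cytoskeleton (chromosome 5, 20986645 to 21055797), was at 25.9, 27.3, 28.6 and 28.5 FPKM in the 1 h controls and at 42.2, 42.6, 38.6 and 41.5 with IL-4. At 3 h it was at 33.1, 32.1, 34.1 and 32.3 in controls and at 20.1, 23.0, 19.6 and 16.8 with IL-4. It too was separated in opposite directions, with a change of -1.27 ± 0.10 (limma adjusted p = 7.36e-13). Calcrl, the receptor for calcitonin gene-related peptide and adrenomedullin, went from 0.65 to -0.52 and Hhex, a homeodomain repressor, from 0.82 to -0.27.

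The 5 rows with a more positive response and no call at either time were Slc30a1, Rab3il1, Junb, Gadd45b and Tnfrsf12a. Rab3il1, an exchange factor for Rab proteins (chromosome 19, 10018228 to 10035586), went from a response of -0.29 to 0.95, a change of 1.24 ± 0.16 (limma adjusted p = 2.95e-07). Slc30a1, a zinc exporter, went from -0.88 to 0.43 (change 1.30 ± 0.36, adjusted p = 0.012). Junb, an AP-1 subunit, went from -0.81 to 0.27 (change 1.09 ± 0.31, adjusted p = 0.0154), with an adjusted p of 0.0564 without replicate 4 of the 1 h IL-4 samples. Gadd45b, a stress gene, went from -0.89 to 0.14 (change 1.04 ± 0.21, adjusted p = 0.000511), and its change fell under 1 in size when certain single libraries were left out (0.97 without replicate 1 of the 1 h controls). With all libraries kept, the change of Gadd45b was 0.985 with quantile and 0.989 with upper-quartile scaling, also under 1.

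The later time points are separate libraries that the contrast did not use, although the labels do not say whether they share animals with the earlier ones. Of the 88 started-higher rows, 77 were called higher at 6 h (87.5%, against 3.21% of all rows tested) and 29 at 24 h (33.0%, against 3.61%). Of the 43 started-lower rows, 39 were called lower at 6 h (90.7%, against 2.43%) and 22 at 24 h (51.2%, against 4.70%). All 21 that grew higher were called higher at 6 h and 12 at 24 h. None of the 4 that stopped higher or the 6 that stopped lower was called in its 1 h direction at 6 h, and at 24 h 1 of the 6 was called higher.

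In Stat6-/- cells no row was called for the change from 1 h to 3 h, where limma gave 34 rows with an unadjusted p under 0.05, 3 of them also at least 1 in size. Left out one by one, the 8 libraries gave 0 or 1 call, the call being Ceacam1 without replicate 1 of the 1 h IL-4 samples (2.96, adjusted p = 1.65e-10). The Stat6-/- change lay within 0.5 of 0 for all 182 rows called in WT and for 99.3% of the 10818 rows tested, so it was not particular to them. The difference between the WT and the Stat6-/- change was called for 86 rows (0.795%), 66 higher (0.61%) and 20 lower (0.185%), with 2 Stat6-/- samples per group. With the replicate number as a block it was called for 171 rows. The 34 class leaders followed gene by gene were given markers of the contrast or were picked by the size of their WT change. That WT change is part of the difference tested, so counts of leaders that pass partly restate the choice. Of the 34, 18 differed between genotypes by this test, and 30 with the block. Among the others, Tgif1 (difference 1.09, limma adjusted p = 0.0594, and 3.5e-05 with the block) and Abca1 (-1.16, adjusted p = 0.448, and 0.052 with the block) did not pass without the block, which does not show that they changed alike.

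**Figure D3:**
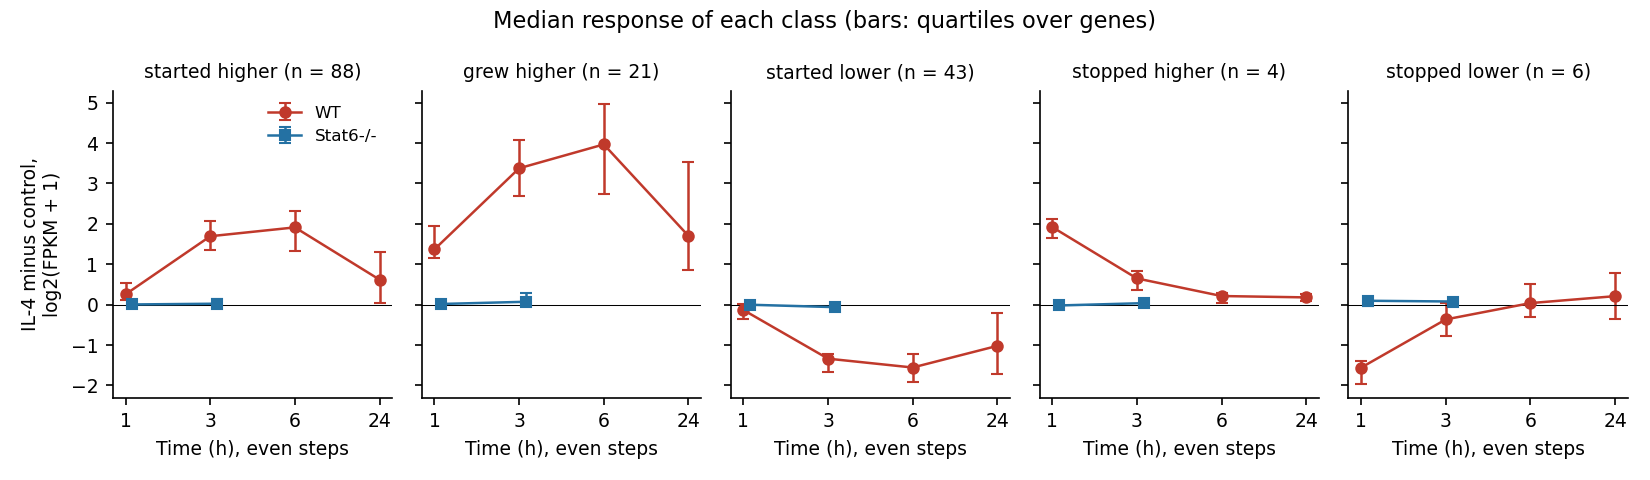
Median IL-4 response (y axis, difference of mean log2(FPKM + 1)) of 5 classes over time (x axis, hours in even steps), with bars for the quartiles over genes, in WT (red, 4 samples per group and 3 with IL-4 at 24 h) and Stat6-/- (blue, 2 samples per group, 1 h and 3 h shown). WT started-higher rows go from 0.26 at 1 h to 1.69 at 3 h and 1.91 at 6 h, and the Stat6-/- medians stay near 0.

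The classes also differed in a feature that the contrast did not use, the span of the locus from its first to its last base, introns included. The median span was 20.3 kb over all rows tested, and 9.64% of rows spanned over 100 kb. Among the started-higher rows the median was 63.1 kb and 39 of 88 (44.3%) spanned over 100 kb, among them St7 (193.8 kb), Fchsd2 (175.6 kb) and Fmnl2 (276.3 kb). Among the started-lower rows it was 79.4 kb with 18 of 43 (41.9%), among them Arhgap22 (153.1 kb) and Abca1 (129.1 kb).

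Loci of responses already called at 1 h were shorter. The median span was 15.5 kb for the 21 rows that grew higher, with none over 100 kb, and 15.6 kb for the 122 rows called higher at 1 h, with 3 (2.46%) over 100 kb. The 6 that stopped lower had a median of 4.16 kb. Between 100 and 200 kb, 4.18% of 741 rows started higher and 0.135% were called higher at 1 h, whereas under 10 kb the shares were 0.556% and 1.44% of 3060 rows. Over 200 kb they were 2.65% and 0.662% of 302 rows. The share that started lower was 2.16% between 100 and 200 kb and 0.662% over 200 kb. In the alternative fits that kept all libraries, between 40.9% and 48.0% of started-higher rows spanned over 100 kb, a range computed after the data were seen. The loci of Retnla (1.91 kb) and Thbs1 (15.2 kb) were short. These shares are descriptions without a test. The level differed between long and short loci as well, with a median of 2.46 FPKM in the 1 h controls for started-higher rows over 100 kb and 3.89 for the others, and its part in the shares was not tested.

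Split at 100 kb, a division made after the data were seen, the started-higher rows had median responses of 0.13 and 0.44 at 1 h for long and other loci, and 1.56 and 1.71 at 3 h. By 24 h the medians were 0.35 and 0.88, with 7 of 39 long and 22 of 49 other loci called higher. The started-lower rows had medians of -0.53 and -1.31 at 24 h, with 6 of 18 and 16 of 25 called lower. Over all rows tested, 3.61% were called higher and 4.70% lower at 24 h. These shares were not computed apart for long and other loci, so whether the counts reflect the span was not tested.

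**Figure D4:**
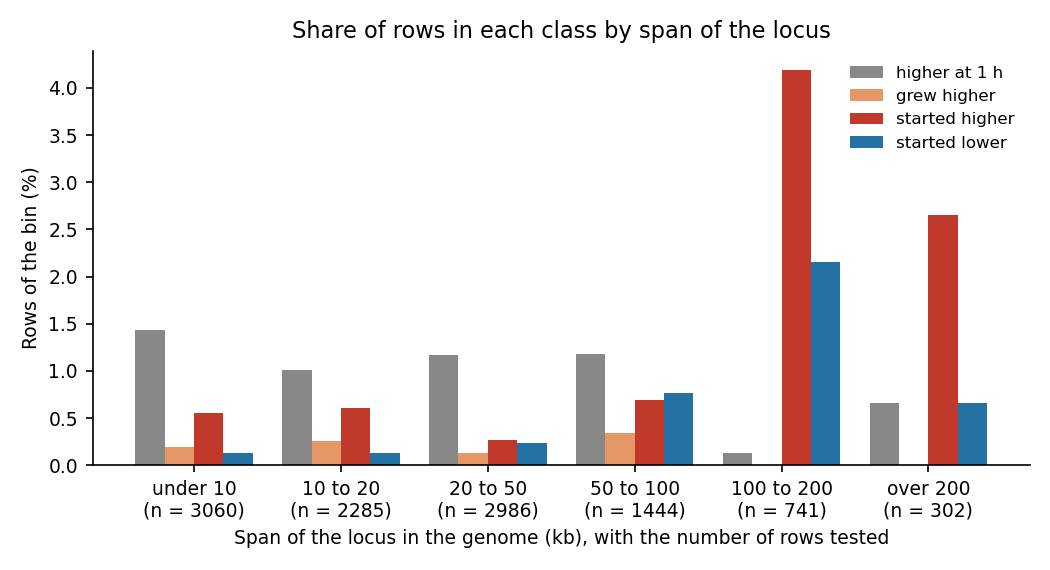
Share of the rows tested (y axis, percent) that were called higher at 1 h, grew higher, started higher or started lower, by span of the locus (x axis, kb, with the number of rows tested per bin). Started-higher rows make up 4.18% of loci between 100 and 200 kb and 0.556% of those under 10 kb, and rows called higher at 1 h make up 0.135% and 1.44%. Over 200 kb, 2.65% started higher and 0.662% were called higher at 1 h.

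Gene lists that fit the cells and the cytokine were counted next, each against the 1.12% of rows with a more positive and 0.564% with a more negative response. In bulk samples, a change in the share of cells of a type and a change of RNA per cell cannot be told apart. Of the 26 listed markers of alternative polarization, 19 reached 1 FPKM and were tested. Retnla, Arg1 and Pdcd1lg2 did so only in samples with IL-4. This filter can raise the share of more positive calls in any list, as silent members drop out. Of the 19, 9 were called, all more positive, and the median change was 0.90 against 0.021 over all rows. Beside Retnla, Il4i1, Pdcd1lg2 and Arg1 these were Flt1, Mgl2, Ccl24, Mrc1 and Clec10a. Retnla was given as a marker of the contrast beforehand. Mrc1, the mannose receptor CD206, stood at 155.5 ± 50.4 FPKM with IL-4 at 1 h and 448.5 ± 55.6 at 3 h against 99.2 ± 28.2 and 103.6 ± 21.6 in controls (SD, n = 4 each), a change of 1.48 ± 0.35 (limma adjusted p = 0.0031). Chi3l3, the marker Ym1, was not called (0.86, adjusted p = 0.085). The others not called were Ear11 (0.90), Matk (0.77), Ccl22 (0.47), Clec7a (0.34), Cd200r1 (0.05), Il1rn (-0.07), Mmp12 (-0.15), Tgm2 (-0.49) and Ch25h (-1.10).

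In the pathway itself, 2 of 28 genes for the IL-4 receptor, JAK-STAT parts and their feedback were called. Il4ra, the receptor chain that binds IL-4, started higher, with 26.3 ± 2.8 FPKM with IL-4 at 1 h and 63.1 ± 6.8 at 3 h against 19.4 ± 1.0 and 20.3 ± 1.0 in controls (SD, n = 4 each; change 1.17 ± 0.33, limma adjusted p = 0.015). Socs2, a feedback inhibitor, grew higher (1.57 ± 0.23, adjusted p = 4.29e-06). Cish, another inhibitor of this family, already had a response of 3.96 at 1 h and reached 4.93 at 3 h, and its change of 0.96 fell short of the size for a call.

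Of 23 transcription factors of alternative polarization, 3 were called, namely Bhlhe40 (started higher, 1.40 ± 0.44, limma adjusted p = 0.0293), Batf3 (grew higher, 1.18 ± 0.25, adjusted p = 0.000913) and Junb. In arginine and polyamine metabolism, 3 of 17 were called, all more positive. They were Arg1, the arginine transporter Slc7a2 (grew higher, 1.78 ± 0.11, adjusted p = 8.94e-16) and the spermidine synthase Srm. Srm was at 8.63 ± 1.9 FPKM with IL-4 at 1 h, level with its controls at 8.58 ± 0.18, and at 17.7 ± 1.1 against 8.16 ± 0.24 at 3 h (SD, n = 4 each; change 1.04 ± 0.20, adjusted p = 0.000256).

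The list of Myc and ribosome biogenesis genes had 1 call among 26, the nucleolar GTPase Gnl3 (1.06 ± 0.20, limma adjusted p = 0.000184). Without a size limit, 17 of the 26 had an adjusted p under 0.05, against 1231 of all 10818 rows, and the list's median change was 0.52. Myc itself was the only one of the 17 with a negative change (-0.78, adjusted p = 0.0034). Dkc1 (0.87) and Nop58 (0.80), which belong to small nucleolar ribonucleoproteins, were among the others.

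Growth factors and vasoactive peptides had 4 calls among the 12 of 20 genes that were tested, where Vegfc and Pdgfc reached 1 FPKM only with IL-4. The VEGF receptor gene Flt1 (2.28 ± 0.24), Vegfc (1.51 ± 0.18) and Pdgfc (1.18 ± 0.13) started higher, while Vegfa started lower (-1.20 ± 0.20, limma adjusted p = 3.08e-05). Vegfa was at 2.59 ± 0.26 FPKM with IL-4 at 1 h and 1.54 ± 0.16 at 3 h against 5.43 ± 0.63 and 9.44 ± 0.98 in controls (SD, n = 4 each). Of 15 genes of cell fusion, 2 were called, the integrin Itgb3 (1.62 ± 0.31, adjusted p = 0.000277) and the cadherin Cdh1 (1.28 ± 0.19, adjusted p = 4.41e-06), both of which started higher. Cdh1 was already at 0.928 ± 0.097 FPKM with IL-4 at 1 h against 0.0730 ± 0.019 in controls (SD, n = 4 each). That response of 0.84 fell short of the size for a call. Of 2 tested fibroblast and endothelial markers Pecam1, an adhesion molecule that macrophages also carry, started higher (0.985 ± 0.18 to 7.54 ± 1.8 FPKM with IL-4, change 2.03 ± 0.24, adjusted p = 4.30e-08). The other, Kdr, was at 1.75 FPKM with IL-4 at 1 h and 0.518 at 3 h and was not called, and 10 or 11 of the list's 12 genes stayed under 1 FPKM in every sample of a group.

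The list of TGF-β, SMAD and thrombospondin genes had 3 calls among 26, namely Thbs1, Id2 and Tgif1, and a median of -0.13. Thbs1 and Tgif1 were given as markers of the contrast beforehand, so their calls are no result about the list. Immediate early genes had 3 among 30, namely Gdf15, Btg2 and Zfp36l2, each of which stopped lower. NF-κB targets and inflammatory cytokines had 3 among 33. Tlr2 and Clec4e, the receptor Mincle (-1.34 ± 0.15, limma adjusted p = 1.30e-08), started lower, whereas Cd40, a costimulatory receptor (1.46 ± 0.42, adjusted p = 0.0156), started higher. Cd40 stood at 29.8 ± 2.8 FPKM with IL-4 at 1 h and 68.5 ± 7.4 at 3 h against 15.6 ± 2.2 and 12.5 ± 1.2 in controls (SD, n = 4 each). Ccl24, an eosinophil attractant, was the only call among 18 chemokines (1.71 ± 0.37, adjusted p = 0.00121), and Abca1 the only call among 25 LXR targets and cholesterol synthesis genes.

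No gene was called by limma among 36 type I interferon-stimulated genes, 15 genes of the DUSP, Sprouty and Spred families, 14 heat shock genes or 14 macrophage markers. Their median changes were 0.02, -0.05, 0.18 and 0.08, and the number with an adjusted p under 0.05 was 0, 1, 0 and 1. Changes among the interferon-stimulated genes ran from -0.66 to 0.58.

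**Figure D5:**
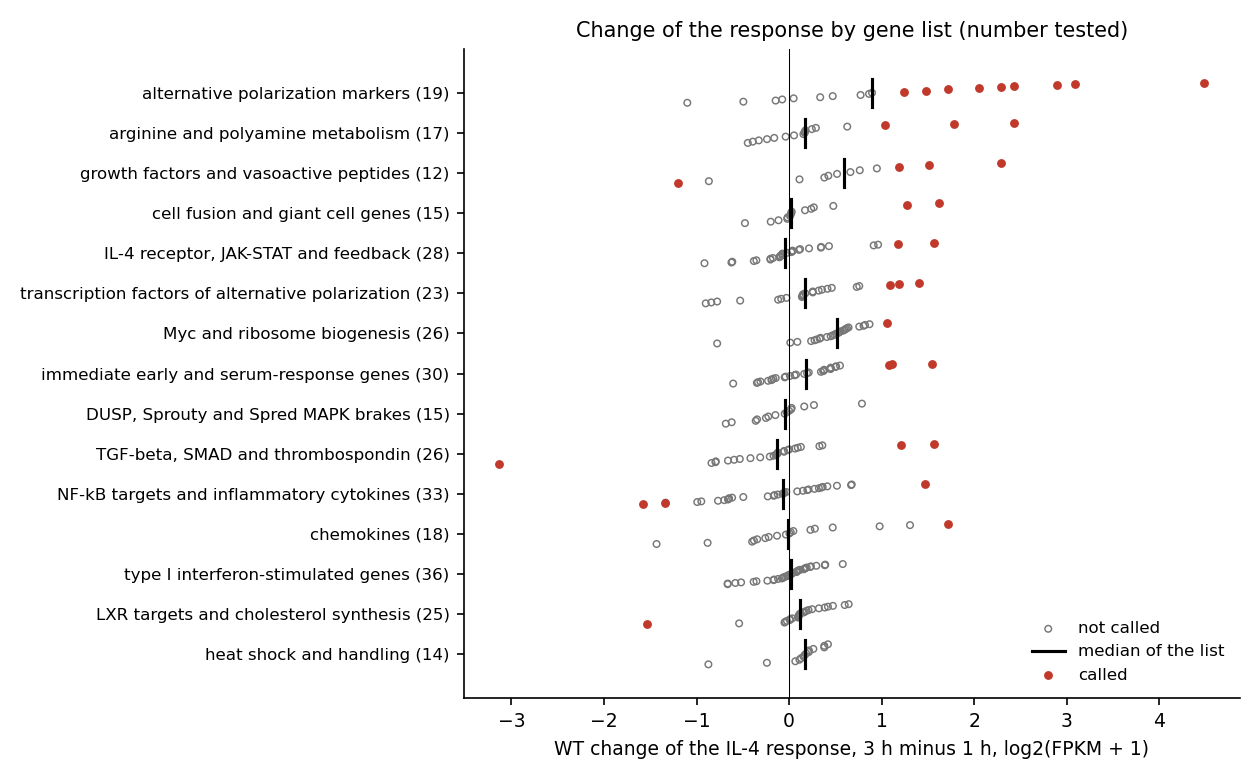
Change of the WT IL-4 response from 1 h to 3 h (x axis, difference of log2(FPKM + 1)) for each tested gene of 15 lists (y axis, with the number tested), called genes in red, others as open circles, and the median as a black bar. Alternative polarization markers reach from -1.10 to 4.49 with 9 called, and the type I interferon-stimulated genes stay between -0.66 and 0.58.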

How the data were processed

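The authors mapped paired reads of 100 bases from poly-A RNA libraries (1 µg of total RNA) to mm10 with TopHat2 2.0.7 and estimated FPKM per locus with Cufflinks 2.0.2, per the labels and the submitters' processing notes, and deposited these FPKM values as 1 table for each sample. The gene annotation was not given in the sources used here. Since FPKM is scaled within a library, abundant genes that move shift the values of the rest. The 53 tables of 23847 rows were joined on locus and symbol, and 4316 values above 0 from numerical rounding (below 1e-06) were set to 0. Groups came from the sample labels.

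Rows with at least 1 FPKM in at least 1 of the 16 WT samples at 1 h and 3 h were tested (10818, of which 81 share a symbol). limma 3.58.1 in R 4.3.3 (lmFit, contrasts.fit, eBayes with trend) was fitted to log2(FPKM + 1) of all 53 samples with a mean for each of 18 groups and 35 residual degrees of freedom. All tests, two-sided, had Benjamini-Hochberg adjustment over all rows. The p-values set each change against the spread between samples within groups. On simulated data of 10818 rows, 200 of them changed, the WT contrast recovered 95% of changes of 1.5 and 100% of changes of 2.5. There were 4 false calls. No recovered share was obtained for low rows, so these shares do not tell how often changes of low rows are found. The tables hold no counts, and absolute depth is unknown. Relative depth came from the fixed ratios between samples of 5631 rows under 1 FPKM, which fitted a single depth per sample within 2% in 100% of 120 pairs.

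The contrast, its classes and the gene lists were chosen with earlier results of these data known. The genes named are Retnla, Thbs1 and Tgif1, the 6 largest changes among those that started in each direction and the 4 largest in each other class (symbol on 1 row, a mean of at least 2 FPKM in a group), and up to 4 members per list. Other called genes were named after their values were seen. Alternatives were pseudocounts of 0.1 and 0.5, no filter and a filter of 5 FPKM, quantile and upper-quartile scaling, only the groups compared, a replicate block, an unmoderated linear model and leaving out each sample. Promoters are those of RefSeq (GRCm38.p6), matched by symbol. Replicate 1 of WT with IL-4 at 24 h is not analysed here. The values of 1 called row are not reported here.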

Additional observations from a re-analysis of the deposited data

Results flagged for a closer look

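In 144 groups of 4 WT samples, for the class leaders, the FPKM sum and the relative depth, 7 held a sample that stood apart by Dixon's criterion, where 1 in 20 would give 7.2. Snora17 was at 36.65 FPKM in replicate 4 of the 1 h controls (0 in the others) and at 107.8 in replicate 1 of the 3 h IL-4 samples (0 to 12.05 in the others). Arhgap22 was at 15.99 in replicate 4 of the 1 h IL-4 samples (21.54 to 22.57 in the others). In the 3 h IL-4 samples, AI504432 was at 5.275 in replicate 2 (3.636 to 3.772) and Id2 at 36.07 in replicate 4 (46.47 to 48.1). Snn was at 0.6826 in replicate 4 of the 3 h controls (0.4847 to 0.5137), and Calcrl at 8.818 in replicate 2 of the 1 h controls (12.3 to 12.86).

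The change from 1 h to 3 h differed between WT and Stat6-/- cells in 86 rows by the limma test of the difference. Among the class leaders, the difference (WT minus Stat6-/-, log2 scale) was 4.74 for Retnla, 3.16 for Il4i1, 2.94 for Pdcd1lg2, 2.74 for Fchsd2, 2.58 for St7, 2.46 for Fmnl2, 2.45 for Prps1, 2.415 for Snn, 2.39 for Arg1, 1.69 for Nab2 and 1.265 for Rab3il1. It was -3.17 for Thbs1, -1.56 for Tlr2, -1.502 for Slc16a10, -1.43 for Serpinb8, -1.26 for Ptpn12, -1.20 for Ripk2 and -1.09 for 9130008F23Rik. The Stat6-/- groups held 2 samples each. Apart from the given markers, the leaders had been picked by their WT change, which is part of each difference.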

How the results depend on the processing

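The number of rows called for the WT change was 182 and ran from 154 to 266 over the alternatives that kept all libraries. With a pseudocount of 0.1, 102 rows were called lower, 77 started lower, 2 stopped higher, 12 stopped lower and 39 grew higher, and with 0.5, 10 stopped lower. Leaving out single libraries gave 159 to 197 rows called, 106 to 131 higher and 51 to 66 lower, with 76 to 94 started higher, 38 to 45 started lower, 2 to 5 stopped higher, 4 to 9 stopped lower, 19 to 22 grew higher, 0 to 1 called in Stat6-/- and 76 to 103 for the genotype difference. The causes were not tested. Of 34 genes followed, 28 kept their call in every alternative. The others, Snora17, AI504432, Gadd45b, 9130008F23Rik, Gdf15 and Junb, lost it in 26 comparisons, and none changed sign.

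Same-numbered WT samples deviated together with a mean r of 0.236 (-0.00324 to 0.483), over 0.1 in 21 of 24 pairs, and 15 of 16 samples were closest to their own number. The mean r of -0.0785 for different numbers is no separate baseline. Deviations from a group mean cancel out, so it falls as the r of equal numbers rises. As the labels do not tie a number to an animal, the numbers were not taken as pairs. With a replicate block 202 rows were called for the WT change, all 182 among them, and 171 in place of 86 for the genotype difference. The block with only the groups compared, added after the data were seen, gave 201. FPKM without counts allow no counting interval for low values such as Retnla in controls.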
